A study of Oryza sativa Japonica Group and Oryza sativa Indica Group with 16 samples.

Results

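The genes described here make, move and break down sucrose and starch in the rice leaf. They were picked by a rule on gene names, chosen with earlier results of these data known. A probe set was taken when its single gene carried, as symbol or synonym with a leading Os dropped, one of the names SUS, RSUS, SPS, SUT, CIN, NIN, INV, AGPL, AGPS, GBSS, ISA, BMY or AMY followed by a number or by a number and a letter. The rule found 38 probe sets for 29 genes, among 57381 probe sets in all, of which 22436 are annotated with 1 gene and cover 17905 genes. Of the 38, 2 probe sets belong to solanesyl diphosphate synthases, the enzymes of the prenyl side chain of quinones, which share the symbols SPS1 and SPS2 with the sucrose enzymes. Without them 36 probe sets for 27 genes remain, and all counts below are over these 36. No gene of the annotation used matched AGPL or BMY, and the 1 gene that matched ISA had no probe set here, so the large subunits of ADP-glucose pyrophosphorylase, the beta-amylases and the isoamylases are not described. In all, 29 of 34 matching genes had a probe set, with 6 of 7 for SUS, 5 of 7 for CIN and 5 of 6 for AMY. The 2 genes that matched INV were CIN3 and CIN7, given here as cell wall invertases, so no vacuolar invertase is described.

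Sucrose is the form in which a leaf exports its carbon. It is built by sucrose phosphate synthase, split either by sucrose synthase into UDP-glucose and fructose or by invertase into glucose and fructose, and carried across membranes by sucrose transporters of the SUT family. Starch stores carbon in the plastid: ADP-glucose pyrophosphorylase makes the glucosyl donor, starch synthases build the chains, and amylases and other enzymes take them apart. A mature flag leaf is a source organ that feeds the panicle above it.

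The study set IRAT109, a drought-resistant upland japonica cultivar, against ZS97, a drought-sensitive paddy indica cultivar, both grown in PVC pipes. Fully expanded flag leaves were taken at the booting stage, from the middle of the blade, without stress (D0, relative water content 94 to 95%) and in slight (D1, 83 to 88%), moderate (D2, 74 to 78%) and severe (D3, 65 to 69%) drought of a first drying cycle. With 2 biological replicates for each of these 8 groups, 16 Affymetrix Rice Genome Arrays were used, and no transgene, chemical or other treatment was part of the design. Each genotype is 1 cultivar, so what distinguished the genotypes cannot be told apart from any other difference between these 2 cultivars, and drying cannot be told apart from the time the leaf spent in the drying pipe.

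The values are signal intensities on a linear scale. Array medians lay between 36.9 and 38.8, and 27.9 to 29.5% of all signals on an array were below 16. The replicates of a group correlated at 0.997 to 0.998 across all probe sets. Changes are differences of log2(intensity + 16), which understate the change of dim probe sets, and are given with the standard error (SE) of a limma fit over the 16 arrays. A probe set was called when its Benjamini-Hochberg adjusted p over all 57381 probe sets was under 0.05 and its change was over 2-fold, which is 1 on the log2 scale. For the mean drought change, the 3 drought stages were averaged and D0 of the same genotype was subtracted. The 15 probe sets of green leaf markers summed to between 90829 and 97231 on the 4 unstressed arrays. At D3 these sums were 49577 to 50905 in IRAT109 and 41447 to 41496 in ZS97, and 3 of the 15 fell in the mean change in IRAT109 and 7 in ZS97. Of 6 senescing leaf probe sets, where SGR and NOL are counted repeatedly, 3 rose in IRAT109 and 5 in ZS97. Their sums in IRAT109 were 4330 to 4896 at D0 and 7435 to 7477 at D3. In ZS97 they were 6243.5 to 6399 at D0, 19768 to 21281 at D2 and 16480 to 17028 at D3. NYC1 in IRAT109 went from a mean of 3180 at D0 to 1915 at D3. Over all probe sets 2.97% rose and 4.07% fell in IRAT109, and 3.32% and 3.54% in ZS97. The part of the green leaf and senescing leaf markers in the changes below was not tested. In whole leaf tissue, fewer cells of a type and less RNA per cell cannot be told apart.

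Most sucrose and starch genes did not pass the thresholds. In IRAT109, AMY2A and SUS4 rose and CIN1, SUS2 and 1 probe set of GBSS1 fell, while 31 of the 36 probe sets were not called. The background over all probe sets was 2.97% rising and 4.07% falling. In ZS97, AMY2A and SUS4 rose, CIN1 and AGPS2 fell and 32 were not called, against a background of 3.32% rising and 3.54% falling. The median change over the 36 probe sets was -0.03 in IRAT109, where that of all probe sets was 0.01, and -0.01 in ZS97, where that of all was also -0.01. AMY2A, SUS4 and CIN1 were called in the same direction in both genotypes, 3 of the 6 probe sets called in either. How often this held among all probe sets called in either genotype was not computed. Over all comparisons made, 27 of the 36 were never called, and 19 never reached an intensity of 64 on any array, which leaves 17 that did. The matching shares over all probe sets were not computed, and the array medians of 36.9 to 38.8 were also under 64. Neither count therefore sets these genes apart. The 6 probe sets called in a mean change lay in 5 gene groups, and within the sucrose synthases one rose while another fell.

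**Figure D1:**
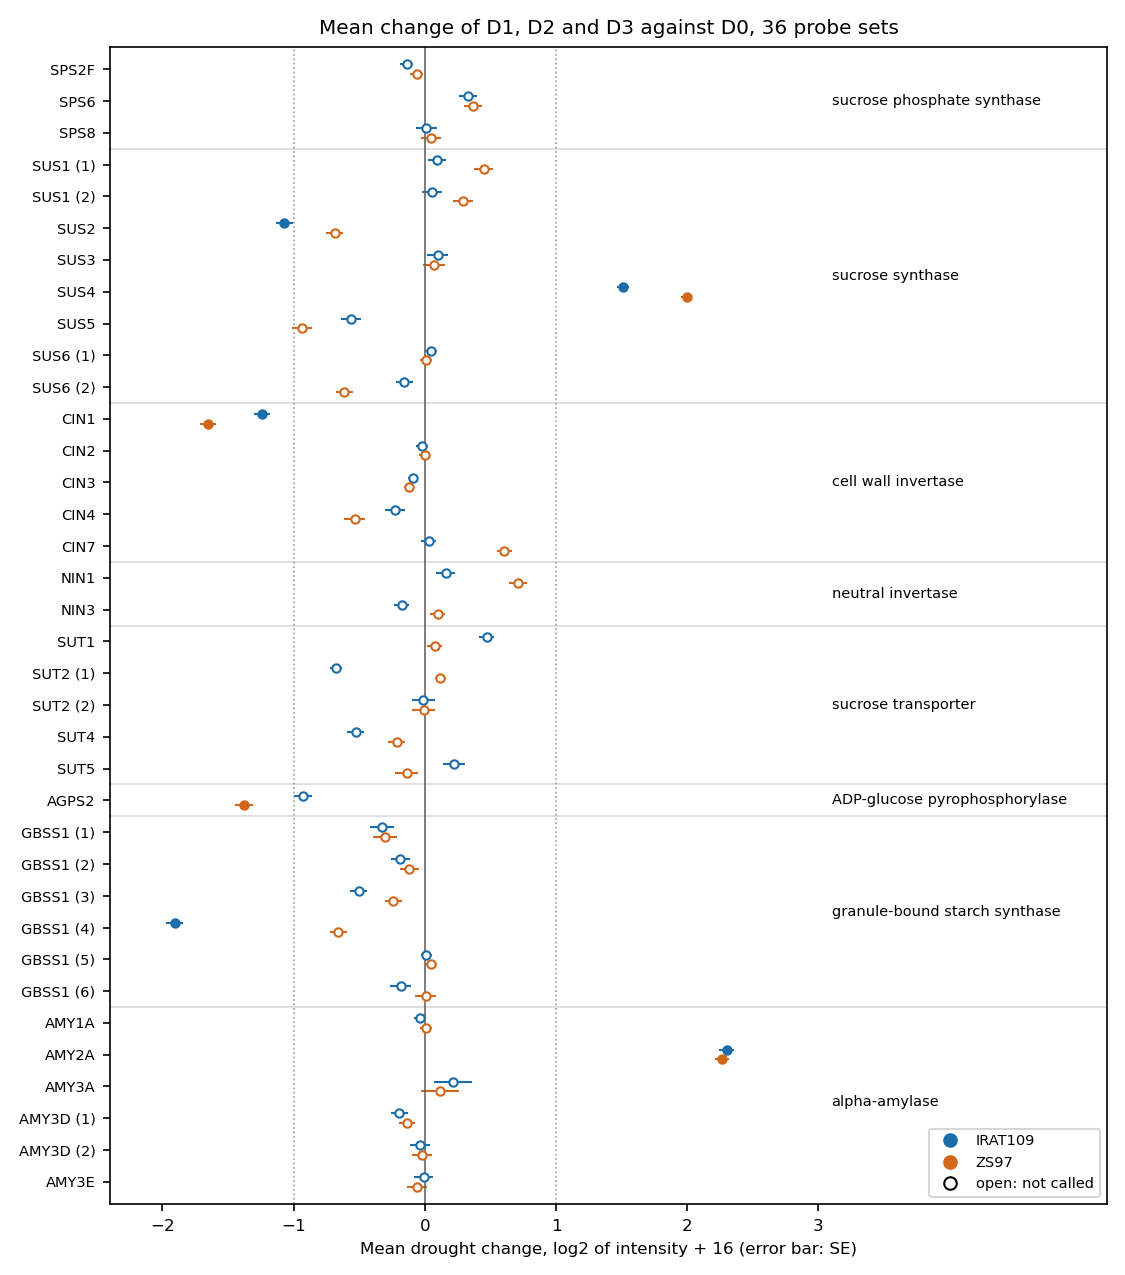
Mean drought change (D1, D2 and D3 against D0, log2 of intensity + 16) of the 36 probe sets by gene group, IRAT109 in blue and ZS97 in orange, with the SE as error bar, filled points where called and dotted lines at a 2-fold change. Most points lie near 0, while AMY2A and SUS4 stand to the right in both genotypes, CIN1 to the left in both, and the fourth GBSS1 probe set to the left in IRAT109.

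At the single stages, 2 probe sets rose and 4 fell in at least 1 stage in IRAT109, with a background of 4.22% and 5.40%. In ZS97, 3 rose and 3 fell, with a background of 4.70% and 4.61%. In each genotype 2 rose and 2 fell at every stage, AMY2A, SUS4, CIN1 and GBSS1 in IRAT109 and AMY2A, SUS4, CIN1 and AGPS2 in ZS97. The share of all probe sets called at every stage was not computed, so this count does not set these genes apart. Steps between drought stages were seldom called by limma. From D1 to D2 it called 0 of the 36 in either genotype (background 0.134% in IRAT109 and 0.716% in ZS97), with 10 and 11 at an unadjusted p under 0.05. From D2 to D3 it called NIN1 in IRAT109 (background 0.627%) and 0 in ZS97 (background 0.228%), where 5 were at an unadjusted p under 0.05.

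Sucrose phosphate synthase, the enzyme that commits carbon to sucrose, was represented by SPS6, SPS8 and SPS2F, and limma called none in a mean change, with 2 of the 3 in IRAT109 and 1 in ZS97 at an unadjusted p under 0.05. The SPS6 signal in IRAT109 was 372 and 355 at D0, 478 and 461 at D1, 467 and 464 at D2, and 406 and 493 at D3. SPS6 in ZS97 gave 365 and 341 at D0, 397 and 426 at D1, 494 and 464 at D2, and 517 and 470.3 at D3. All drought arrays of SPS6 lay above the D0 arrays of the same genotype, with mean changes of 0.33 (SE 0.068, limma adjusted p = 0.00145) and 0.37 (SE 0.068, adjusted p = 0.000679), under the fold threshold. The difference of these 2 changes was -0.04 with a 95% interval from -0.25 to 0.17. SPS8 ranged from 384 to 516 over the 16 arrays, its D0 and drought arrays overlapped in both genotypes, and its mean changes were 0.01 and 0.05. SPS2F stayed below 16 on all 16 arrays.

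Sucrose synthase, which cleaves sucrose reversibly and keeps the glucose unit activated, showed opposite changes in SUS4 and SUS2. The SUS4 signal in IRAT109 was 906 and 884 at D0, 1998 and 1959 at D1, 2103 and 2165 at D2, and 4168 and 3945 at D3. SUS4 in ZS97 gave 842 and 852 at D0, 2262 and 2462 at D1, 3743 and 3845 at D2, and 4520.0 and 4456 at D3. No drought array overlapped a D0 array. Both ZS97 arrays were already above both IRAT109 arrays at D1, and far above them at D2. SUS4 rose 2.85-fold in IRAT109, by 1.51 (SE 0.045, limma adjusted p = 1.61e-11), and by 2.0 (SE 0.045, adjusted p = 1.30e-12) in ZS97, 3.99-fold. By D3 the changes were 2.16 and 2.38. The difference between the genotypes was -0.90 at D2 (95% interval -1.07 to -0.73, adjusted p = 3.35e-06) and -0.22 at D3 (interval -0.39 to -0.05, adjusted p = 0.0619), and over the mean change -0.48 (interval -0.62 to -0.35, adjusted p = 0.000108), all under the fold threshold. The 2 genotypes reached similar signals by different steps: the step from D1 to D2 was 0.11 in IRAT109 and 0.68 in ZS97, that from D2 to D3 was 0.92 and 0.24, with differences between the genotypes of -0.57 (adjusted p = 0.000754) and 0.68 (adjusted p = 0.000249).

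The SUS2 signal in IRAT109 was 3887 and 3905 at D0, 2009 and 1974 at D1, 1616 and 1717 at D2, and 1916 and 1862 at D3. SUS2 in ZS97 gave 2446 and 2409 at D0, 1574 and 1889.5 at D1, 1281 and 1442 at D2, and 1423 and 1472 at D3. In both genotypes every drought array was below both D0 arrays, and the unstressed IRAT109 leaves had the highest signal. SUS2 fell by 1.07 (SE 0.065, limma adjusted p = 1.75e-08) in IRAT109, 2.1-fold, while its mean change in ZS97 was -0.69 (SE 0.065, adjusted p = 1.56e-06), under the fold threshold. The difference of the changes was -0.39 (95% interval -0.59 to -0.19, adjusted p = 0.00815), so the call in IRAT109 alone is not a call of a difference between the genotypes. At D0, SUS2 differed by 0.68 (SE 0.080) between IRAT109 and ZS97.

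Among the other sucrose synthases, SUS5 was called at 1 stage. It was a dim probe set, with 36.7 and 33.8 at D0 in IRAT109 against 14.8 to 21.1 on the drought arrays, and 52.2 and 38.8 at D0 in ZS97 against 12.6 to 19.4. The 2 ZS97 replicates at D0 lay apart, and the drought arrays of both genotypes were near the added constant of 16. SUS5 fell at D2 in ZS97, by 1.03 (SE 0.093, limma adjusted p = 1.24e-06), and the value was -0.87 without ZS97 D0 replicate 1, -0.96 without ZS97 D2 replicate 1 and -0.49 with a constant of 64, none of which was called. Its mean changes were -0.56 in IRAT109 and -0.94 in ZS97. SUS1 had a peak at D1 that did not pass the fold threshold. Its brighter probe set gave 251 and 263 at D0 and 374 and 338 at D1 in IRAT109, and 230.5 and 265 at D0 and 406 and 443 at D1 in ZS97, with changes at D1 of 0.44 (SE 0.085, adjusted p = 0.00107) and 0.74 (SE 0.085, adjusted p = 1.53e-05). At D2 the SUS1 arrays read 224 and 226 in IRAT109, below D0, and 284 and 321 in ZS97, still above D0. The second SUS1 probe set had changes at D1 of 0.23 and 0.50. SUS3 lay between 25.6 and 39.3 on all arrays, and the 2 SUS6 probe sets stayed at or below 25.9, none of them called.

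**Figure D2:**
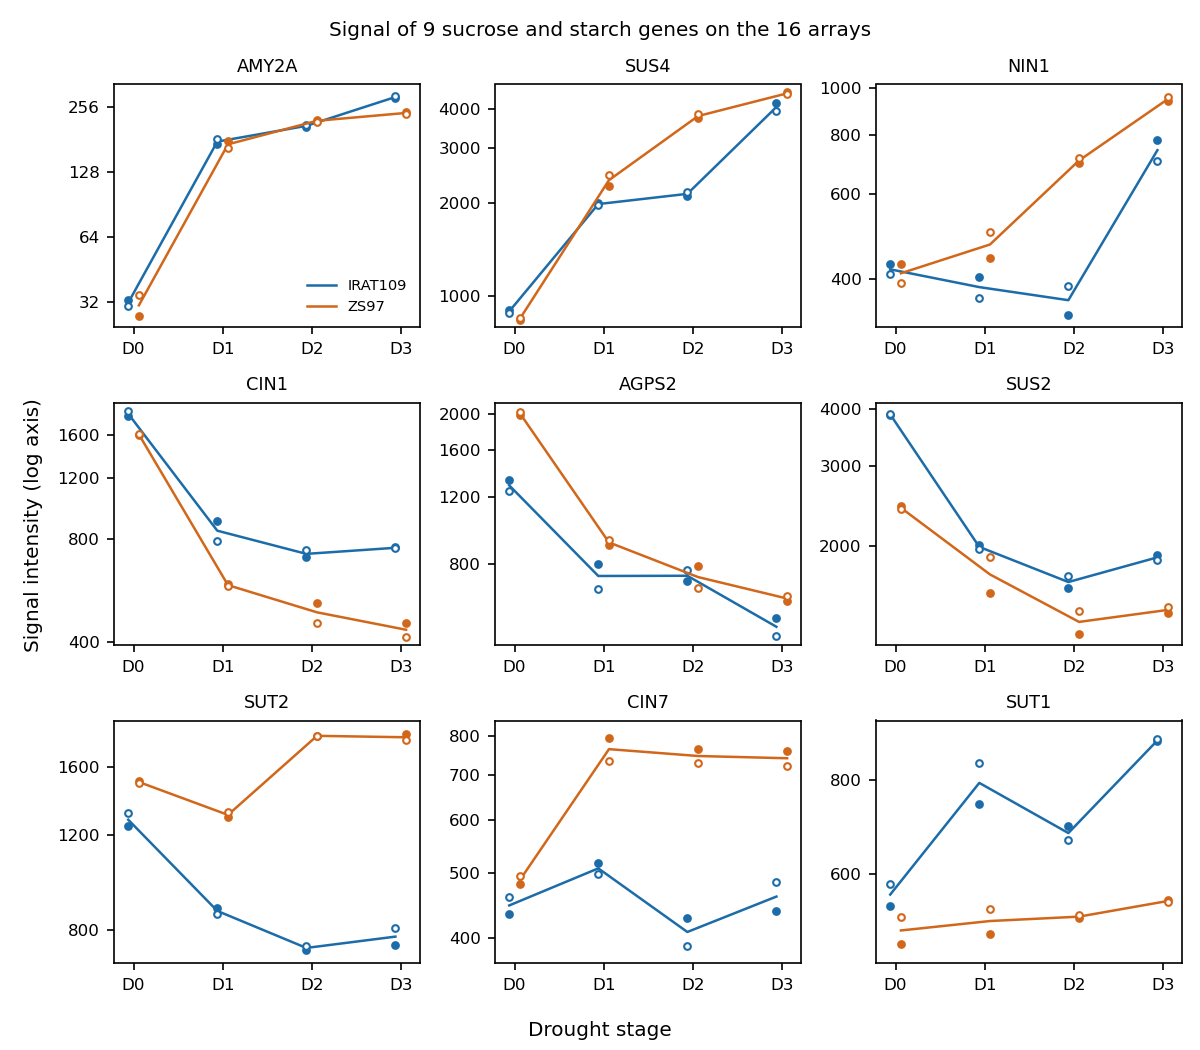
Signal intensity (log axis, scale differs between panels) of 9 genes on the 16 arrays by drought stage, filled points for replicate 1, open points for replicate 2 and lines through the group means, IRAT109 in blue and ZS97 in orange. AMY2A and SUS4 are higher on all drought arrays, CIN1, AGPS2 and SUS2 lower, and the SUT2, CIN7 and SUT1 lines of the 2 genotypes separate under drought.

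Invertases split sucrose irreversibly, in the cell wall (CIN) or in the cytosol and organelles (NIN, the neutral or alkaline type). CIN1 in IRAT109 gave 1813 and 1876 at D0, 898 and 789.5 at D1, 706 and 739 at D2, and 755 and 750.0 at D3. The CIN1 signal in ZS97 was 1599 and 1613 at D0, 589 and 584 at D1, 521 and 456 at D2, and 455 and 415 at D3. Every drought array was far below its D0 arrays, and under drought every ZS97 array was below every IRAT109 array. CIN1 fell by 1.24 (SE 0.061, limma adjusted p = 2.23e-09) in IRAT109, 2.36-fold, and fell by 1.65 (SE 0.061, adjusted p = 1.36e-10) in ZS97, 3.15-fold. The difference between these changes was 0.41 (95% interval 0.22 to 0.60, adjusted p = 0.00364), under the fold threshold.

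The other cell wall invertases were not called. CIN7 in ZS97 gave 480.5 and 495 at D0, 795 and 732 at D1, 763 and 729 at D2, and 759.7 and 721 at D3, while in IRAT109 all 8 arrays lay between 388 and 517. All ZS97 drought arrays of CIN7 were thus above all other arrays of this probe set. The mean change was 0.60 (SE 0.057, limma adjusted p = 1.46e-06) in ZS97 and 0.03 (SE 0.057, adjusted p = 0.750) in IRAT109, and the difference was -0.57 (95% interval -0.75 to -0.40, adjusted p = 0.00019), below a 2-fold difference. CIN4 had mean changes of -0.23 and -0.53, and its D0 and drought arrays overlapped in IRAT109 but not in ZS97. CIN2, known as GIF1 for its part in grain filling, and CIN3 are neighbouring genes on chromosome 4. Both stayed at or below 11.0 on all 16 arrays.

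NIN1 was the only member called at a step between drought stages. Its signal in IRAT109 was 429 and 409 at D0, 404 and 365 at D1, 336 and 386 at D2, and 779 and 705 at D3. NIN1 in ZS97 gave 429.9 and 392 at D0, 441 and 502 at D1, 698 and 715 at D2, and 939 and 959.6 at D3. In IRAT109 only the D3 arrays stood above the rest, whereas in ZS97 the D2 arrays already did. From D2 to D3 NIN1 rose by 1.01 (SE 0.085, limma adjusted p = 7.86e-06) in IRAT109, a value just past the threshold, and it was 0.91 without the first IRAT109 D2 replicate, 0.94 without the first IRAT109 D3 replicate, 0.92 with a constant of 64 and 0.99 after quantile normalization. Against D0, NIN1 rose at D3 in ZS97 by 1.18 (SE 0.085, adjusted p = 1.21e-07), and its change in IRAT109 at D3 was 0.80. The difference between the genotypes was largest of the 3 stages at D2, with -0.97 (95% interval -1.23 to -0.71, adjusted p = 7.91e-05), and -0.38 at D3 (interval -0.64 to -0.11, adjusted p = 0.0433). The value at D2 was called after median centring (-1.02), without IRAT109 D0 replicate 2 (-1.0), without IRAT109 D2 replicate 2 (-1.06) and without ZS97 D0 replicate 1 (-1.03). NIN3 in IRAT109 gave 2614 and 2744 at D0, 2524 and 2452 at D1, 2229.5 and 2211 at D2, and 2372 and 2435 at D3. The NIN3 signal in ZS97 was 3114 and 2875 at D0, 2968 and 3468 at D1, 3166 and 3277 at D2, and 3107 and 3257 at D3. Its drought arrays lay below D0 in IRAT109 and overlapped D0 in ZS97, with mean changes of -0.18 and 0.10, and NIN3 was not called.

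The step pattern of NIN1 resembled that of SUS4: in both, ZS97 changed more from D1 to D2 and IRAT109 more from D2 to D3. The pattern was not particular to them. Over all probe sets, 0.134% were called in IRAT109 and 0.716% in ZS97 from D1 to D2. From D2 to D3 the shares were 0.627% and 0.228%. For NIN1 the genotypes differed by -0.66 in the first step (limma adjusted p = 0.00618) and by 0.59 in the second (adjusted p = 0.0131). The 6 senescing leaf probe sets count SGR and NOL repeatedly. Of them, 1 was called in the difference between the genotypes for the first step, with a lower value in IRAT109. For the second step 2 were called, with a higher value in IRAT109. The matching shares over all probe sets were not computed. The part of these markers in the differences of NIN1 and SUS4 was not tested.

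Sucrose transporters load sucrose into the phloem or move it across the vacuolar membrane. None of their 5 probe sets was called by limma in a mean change, with 4 in IRAT109 and 2 in ZS97 at an unadjusted p under 0.05, but SUT2, the vacuolar membrane carrier that releases stored sucrose in rice, was called in the comparison of the genotypes at D2. In IRAT109 the SUT2 signal was 1244 and 1316 at D0, 881 and 856 at D1, 736 and 747 at D2, and 749.6 and 807 at D3. SUT2 in ZS97 gave 1509 and 1497 at D0, 1293 and 1320.2 at D1, 1828 and 1831 at D2, and 1842 and 1794 at D3. The IRAT109 drought arrays were all below the D0 arrays, while in ZS97 the D1 arrays were below and the D2 and D3 arrays above them. The changes in IRAT109 were -0.55 at D1, -0.77 at D2 and -0.71 at D3, and in ZS97 -0.20, 0.28 and 0.27. Their difference was -0.35 at D1 (limma adjusted p = 0.00654), -1.05 at D2 (SE 0.075, 95% interval -1.22 to -0.89, adjusted p = 6.20e-07) and -0.98 at D3 (interval -1.14 to -0.82, adjusted p = 1.72e-06), so that at D2 it passed the threshold by a small margin and at D3 it did not. After quantile normalization the value at D2 was -0.96 and was not called. The value at D3 was called after median centring (-1.03), without IRAT109 D0 replicate 1 (-1.02) and without IRAT109 D3 replicate 2 (-1.03). Over all probe sets 4.20% were called in this comparison at D2. The second SUT2 probe set was dim, between 26.8 and 61.9 on the 16 arrays, with mean changes of -0.01 in both genotypes and a difference of 0.00 to 2 decimals (95% interval -0.27 to 0.27), so the 2 probe sets of the gene did not give the same result.

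SUT1, a plasma membrane carrier, moved the other way. Its signal in IRAT109 was 544 and 581 at D0, 743 and 843 at D1, 694 and 665 at D2, and 900.5 and 906 at D3, and in ZS97 it stayed between 482 and 554 on all 8 arrays. All IRAT109 drought arrays were above all ZS97 arrays and above the IRAT109 D0 arrays. The mean change of SUT1 was 0.47 (SE 0.057, limma adjusted p = 1.39e-05) in IRAT109 and 0.08 (SE 0.057, adjusted p = 0.36) in ZS97, with a difference of 0.40 (95% interval 0.22 to 0.57, adjusted p = 0.00289), under the fold threshold. SUT4 gave 514 and 484 at D0 in IRAT109 against 306 to 380.1 on its drought arrays, with a mean change of -0.53 (SE 0.063, adjusted p = 1.34e-05), and a mean change of -0.21 in ZS97, where D0 and drought arrays overlapped. SUT5 lay between 24.1 and 45.5 on all arrays.

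**Figure D3:**
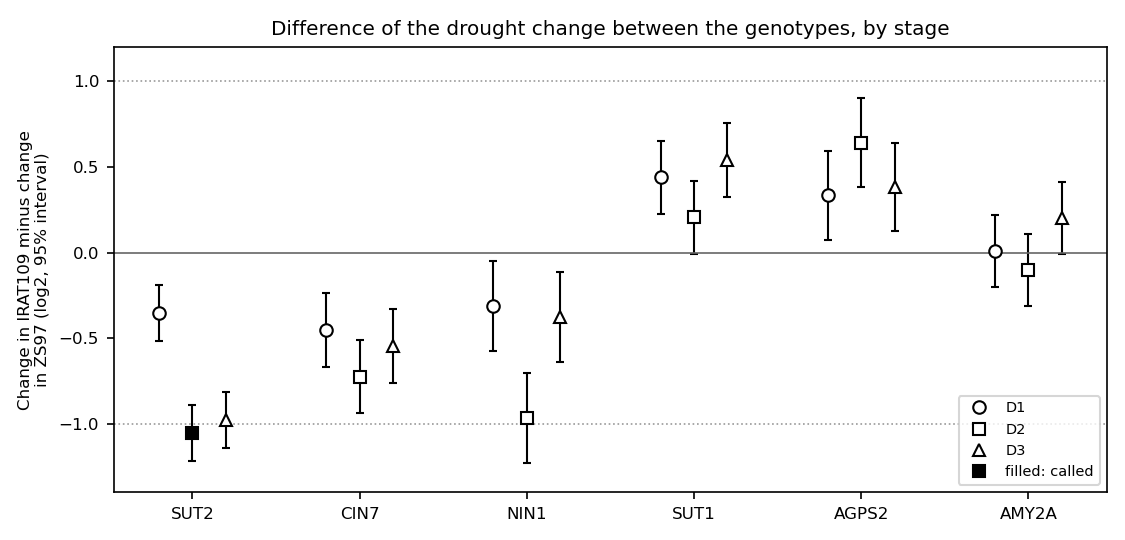
Difference of the drought change between the genotypes (change in IRAT109 minus change in ZS97, log2 scale) at D1 (circles), D2 (squares) and D3 (triangles) for 6 genes, with 95% intervals, dotted lines at a 2-fold difference and filled symbols where called. SUT2, CIN7 and NIN1 lie below 0 at each stage, SUT1 and AGPS2 above 0, and AMY2A near 0, and SUT2 at D2 is called.

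ADP-glucose pyrophosphorylase, the enzyme that makes the glucosyl donor of starch, was represented by its small subunit AGPS2. In IRAT109 the AGPS2 signal was 1338 and 1246 at D0, 799 and 689 at D1, 720.0 and 769.7 at D2, and 575 and 516.5 at D3. AGPS2 in ZS97 gave 1987 and 2019 at D0, 897 and 929 at D1, 788 and 689.7 at D2, and 638 and 659 at D3. Drought arrays of both genotypes were all below their D0 arrays, and the genotypes, apart at D0, overlapped at D2. AGPS2 fell by 1.38 (SE 0.069, limma adjusted p = 2.47e-09) in ZS97, 2.61-fold, while its mean change in IRAT109 was -0.93 (SE 0.069, adjusted p = 1.24e-07). It fell at all 3 stages in ZS97, with -1.12, -1.42 and -1.60, and at D3 in IRAT109, with -1.22. The difference of the mean changes was 0.45 (95% interval 0.24 to 0.66, adjusted p = 0.00419), and ZS97 also had the higher level at D0, with a difference of -0.63 (SE 0.084, adjusted p = 7.94e-05) of IRAT109 from ZS97. Neither passed the fold threshold.

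Granule-bound starch synthase 1, the Waxy gene product that makes amylose in endosperm and pollen, had 6 probe sets, and only the fourth of them in the order of their names was called. This probe set gave in IRAT109 80.3 and 86.5 at D0, 11.7 and 13.4 at D1, 12.6 and 9.3 at D2, and 7.8 and 8.6 at D3. In ZS97 it read 19.4 and 24.7 at D0, 10.7 and 8.9 at D1, 6.8 and 6.8 at D2, and 7.0 and 8.1 at D3. The unstressed IRAT109 arrays stood alone, and the drought arrays of both genotypes were all below 16. GBSS1 on this probe set fell by 1.91 (SE 0.064, limma adjusted p = 5.40e-11) in IRAT109, and its mean change in ZS97 was -0.66 (SE 0.064, adjusted p = 1.95e-06). It was the only one of the 36 called in the interaction of genotype and mean change, with -1.25 (95% interval -1.44 to -1.05, adjusted p = 6.64e-07) and a background of 3.07%, and the only one called between the genotypes at D0, with 1.39 (SE 0.079, adjusted p = 2.07e-08) and a background of 4.87%. With the drought arrays of both genotypes this dim, the interaction rested on the difference at D0. With a constant of 64 in place of 16, the change in IRAT109, the interaction and the difference at D0 were -0.98, -0.73 and 0.78, and none was called. The other 5 GBSS1 probe sets never exceeded 49.7, had mean changes between -0.50 and 0.05 and were not called. The suffix of the called probe set marks probes that can also bind other transcripts, and a difference in sequence under its probes between the japonica and the indica cultivar was not tested. The 13 endosperm marker probe sets, 9 of which never reached 64, summed at D0 to 1673 to 1695 in IRAT109 and 2807 to 3156 in ZS97. One of them, matched by the symbol GLB1, was called between the genotypes at D0, with means of 948 and 2292. It read 926 and 970 in IRAT109 and 2161 and 2422 in ZS97, which is most of these sums. Whether this GLB1 is an endosperm gene was not tested. The median difference over the 13 was -0.04, as over all probe sets. The part of these markers in the result was not tested.

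**Figure D4:**
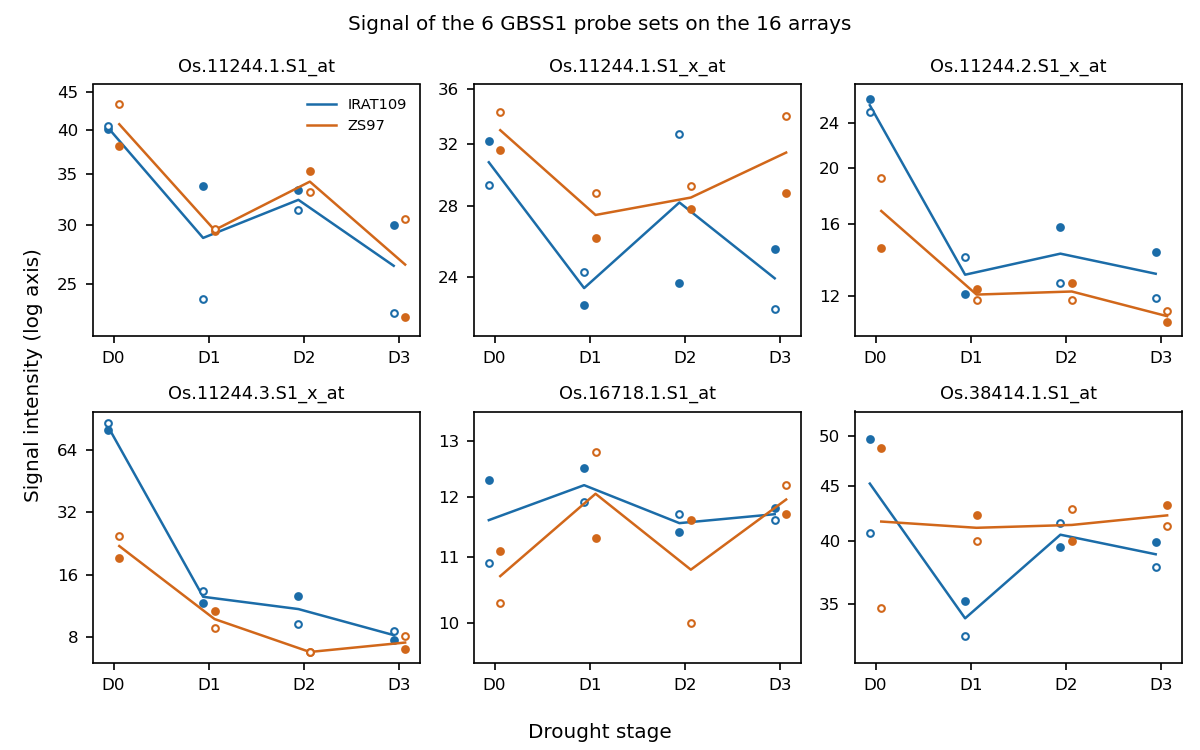
Signal intensity (log axis, scale differs between panels) of the 6 GBSS1 probe sets on the 16 arrays by drought stage, filled points for replicate 1, open points for replicate 2 and lines through the group means, IRAT109 in blue and ZS97 in orange. Only the probe set of the lower left panel, the fourth, drops from above 64 to near 8, in IRAT109, while the other 5 stay below 50 throughout.

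Alpha-amylases cut starch chains from within and are best known from the germinating cereal grain. On the scale of log2(intensity + 16), which understates the change of dim probe sets, AMY2A was the member with the largest mean change in both genotypes. Its signal in IRAT109 was 32.8 and 30.8 at D0, 172 and 182 at D1, 208 and 211 at D2, and 280.1 and 289 at D3. AMY2A in ZS97 gave 27.5 and 34.4 at D0, 178 and 166 at D1, 224 and 218 at D2, and 243 and 237 at D3. All 12 drought arrays were far above all 4 D0 arrays, and most of the change was there at D1. AMY2A rose 4.93-fold in IRAT109, by 2.30 (SE 0.056, limma adjusted p = 2.49e-12), and 4.81-fold in ZS97, by 2.26 (SE 0.056, adjusted p = 2.89e-12). At D1, D2 and D3 the changes were 2.01, 2.24 and 2.65 in IRAT109 and 2.0, 2.34 and 2.45 in ZS97. The difference between the genotypes was 0.04 with a 95% interval from -0.14 to 0.21. The other alpha-amylases were dim: AMY1A, AMY3E and 1 of the 2 AMY3D probe sets were below 16 on all 16 arrays, the other AMY3D probe set reached 18.0 and AMY3A 28.9. AMY3D and AMY3E are neighbouring genes on chromosome 8, and no alpha-amylase other than AMY2A was called.

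The 2 solanesyl diphosphate synthases that share the SPS symbols were not called in the mean change. The change of SPS1 was -0.58 in IRAT109 and -0.22 in ZS97, that of SPS2 -0.66 and -0.73.

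Genes of the same pathways that the naming rule did not pick were described from further lists. The background for their mean change was 2.97% rising and 4.07% falling in IRAT109, and 3.32% and 3.54% in ZS97. Of 15 probe sets of starch synthases and branching enzymes, 1 rose in each genotype, SS1, soluble starch synthase 1, which elongates short chains of amylopectin. SS1 in IRAT109 gave 146 and 173 at D0, 1119 and 1095 at D1, 1264 and 1266 at D2, and 1586 and 1444 at D3. In ZS97 the SS1 signal was 252 and 238 at D0, 949.5 and 1037 at D1, 1803 and 1827 at D2, and 2328 and 2225 at D3. The drought arrays of both genotypes were far above D0. SS1 rose in IRAT109 by 2.89 (SE 0.062, limma adjusted p = 8.91e-13) and by 2.63 (SE 0.062, adjusted p = 2.06e-12) in ZS97. In ZS97, SS1 and the ADP-glucose supply gene AGPS2, neighbouring steps of starch synthesis, were thus called in opposite directions.

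The starch breakdown list held 3 probe sets besides the amylases, and its disproportionating enzymes were also called in opposite directions. DPE1, which rearranges maltooligosaccharides in the plastid, rose in IRAT109 by 1.11 (SE 0.069) and in ZS97 by 1.65 (SE 0.069). DPE2, which uses maltose in the cytosol, fell by 1.09 (SE 0.060) in IRAT109 and fell by 1.21 (SE 0.060) in ZS97. DPE2 read 4995 and 4759 in IRAT109 and 6378 and 5777 in ZS97 at D0, and 1892 and 1897, and 2289.6 and 2359, at D3. The third member, PWD, a phosphoglucan water dikinase that phosphorylates starch, was not called.

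Of 11 probe sets for hexose phosphorylation and sugar phosphates, limma called none in the mean change in IRAT109. There all 11 were at an unadjusted p under 0.05. In ZS97, 1 rose in the mean change, a hexokinase gene listed as HXK4 and HXK8. At D3 alone, 1 of the 11 fell in IRAT109 and 3 rose in ZS97. The shares over all probe sets for D3 alone are not given here. The HXK8 signal in ZS97 was 159.5 and 152 at D0, 613 and 650.1 at D1, 889 and 854 at D2, and 1070.1 and 1124 at D3, whereas in IRAT109 it stayed between 81.0 and 139. It rose by 2.32 (SE 0.070, limma adjusted p = 1.81e-11) in ZS97, its change in IRAT109 was 0.28, and the difference was -2.04 (SE 0.099, adjusted p = 1.64e-08). A different gene that is also listed as HXK4 was not called in the mean change. Its means were 93 at D0 and 45.25 at D3 in IRAT109, and 45.1 at D0 and 34.1 at D2 in ZS97. Among 9 trehalose probe sets TPP1, a trehalose phosphate phosphatase, fell by 2.17 (SE 0.10) in IRAT109 and fell by 2.86 (SE 0.10) in ZS97.

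Of 19 carrier probe sets, 2 rose and 1 fell in the mean change in IRAT109. In ZS97, 3 rose and 2 fell in the mean change. The background is that given above. MST3, a monosaccharide transporter, fell by 3.26 (SE 0.047) in IRAT109 and fell by 2.17 (SE 0.047) in ZS97, with a difference of -1.09 (limma adjusted p = 1.25e-07). MST3 at D0 read 6370.1 and 6426 in IRAT109 and 3547 and 3461 in ZS97. At D2 it read 491 and 456.5 in IRAT109 and 982 and 941.5 in ZS97. At D3 it read 647 and 671 in IRAT109 and 662 and 684 in ZS97. The genotypes thus differed before drought and, the other way round, at D2, and were close at D3. SWEET15, a sugar exporter, rose by 4.08 in the upland and by 4.16 in the paddy genotype, and SWEET2A rose by 1.75 in ZS97 with a change of 0.48 in IRAT109.

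**Figure D5:**
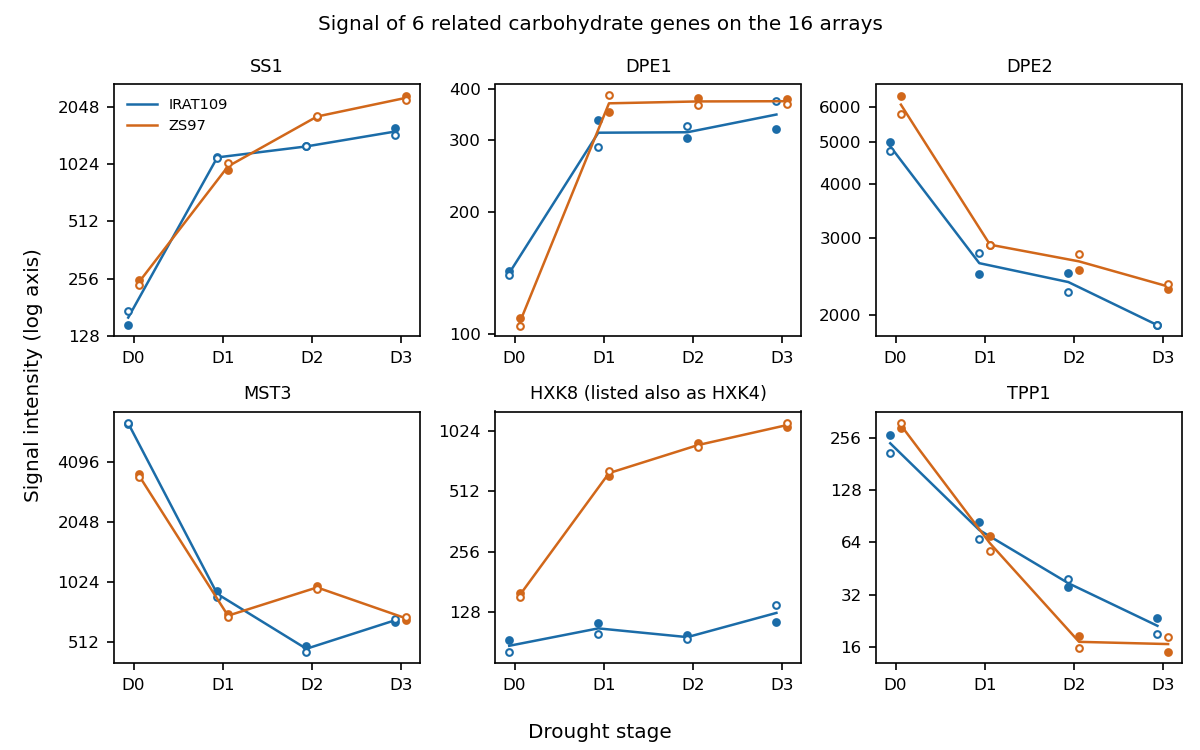
Signal intensity (log axis, scale differs between panels) of 6 carbohydrate genes outside the naming rule on the 16 arrays by drought stage, filled points for replicate 1, open points for replicate 2 and lines through the group means, IRAT109 in blue and ZS97 in orange. SS1 and DPE1 are higher on all drought arrays, DPE2, MST3 and TPP1 lower, and the hexokinase is higher under drought in ZS97.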

How the data were processed

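Total RNA of flag leaves of 2 rice cultivars at 4 drought stages, 2 biological replicates each, was hybridised to 16 Affymetrix Rice Genome Arrays. The signal intensities deposited by the authors are linear, with a value for each probe set on each array, and were used as given. Per the labels they come from MAS5 with no version, and the methods name the robust multiarray average with quantile normalization, so the normalization behind the intensities is not settled. The log2(intensity + 16) values were fitted here with limma 3.58.1 in R 4.3.3, with 8 group means over all 16 arrays, and p-values were adjusted over all 57381 probe sets by Benjamini and Hochberg. Stages were compared with D0, with each other and between genotypes. Calls needed an adjusted p under 0.05 and a change over 2-fold. The fit was tested on simulated data. Probe sets were named through the platform annotation and RefSeq (ASM3414082v1), whose gene order gave the neighbouring genes. No coordinates are printed. The members and the further gene lists were chosen with earlier results of these data known. All 36 probe sets are accounted for, with both arrays of each group for those called in a mean change, an interaction or a step, and for other bright members of each group. Precision is limited by the number of arrays. Alternatives covered the constant, normalization, a filter on dim probe sets, the samples in the fit, rank products and each array left out. Promoter motifs were not analysed here.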

Additional observations from a re-analysis of the deposited data

Results flagged for a closer look

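Differences of the drought change between the 2 genotypes that passed both the limma test and the 2-fold threshold were found for 2 members. GBSS1, on the only one of its 6 probe sets that was called, differed by -1.25 in the mean change, and by -1.24 at D1, -1.15 at D2 and -1.35 at D3 (IRAT109 minus ZS97, log2 scale), on a probe set whose drought arrays all read between 6.8 and 13.4 in both genotypes, and these values rest on the difference of 1.39 at D0. SUT2 on its bright probe set differed by -1.05 at D2, with both IRAT109 arrays at 736 and 747 and both ZS97 arrays at 1828 and 1831.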

How the results depend on the processing

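For the 45 member values that were called, over 1118 recalculations, 1102 kept their direction and side of the thresholds, 16 kept the direction and lost the call, and 0 reversed. Calls were gained 24 times for values not called, 14 with a constant of 1, 2 with median centring and 8 with an array left out. With a constant of 1, the number of members that fell in ZS97 became 5 in the mean change, with SUS5, SUS6 and GBSS1 added, and 5 at 1 or more stages. With a constant of 64, the IRAT109 step from D2 to D3, the interaction and the genotypes at D0 had 0 members called, and quantile normalization also left 0 for that step, by limma. The fall of SUS5 at D2 in ZS97 was -0.49 with a constant of 64. Without a fold threshold, 4 rose and 13 fell in the mean change in IRAT109, 7 and 14 at 1 or more stages, with 3 called from D1 to D2 and 5 from D2 to D3. In ZS97, 7 rose and 11 fell in the mean change, 8 and 12 at 1 or more stages, with 8 and 2 called at the steps. The interaction then had 16 and the genotypes at D0 had 9. The matching shares over all probe sets without a fold threshold were not computed, so these counts do not set the members apart. Leaving out each array gave 0 to 1 for the IRAT109 step from D2 to D3, 2 to 3 falling in the mean change in ZS97 and 2 to 3 at 1 or more stages. SUS5 is the member behind these ZS97 counts, with -1.10 in the mean change without ZS97 D0 replicate 2, and at D2 -0.87 without ZS97 D0 replicate 1 and -0.96 without ZS97 D2 replicate 1. SUT2 at D2 was -0.96 after quantile normalization. The replicate numbers did not pair the samples (correlations of the replicate differences between groups from -0.32 to 0.16, 1 of 28 above 0.1), and the replicate block changed no count and no call of a member.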
